A study of Mus musculus with 6 samples.

Results

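The interleukin-1 family described here comprised 8 genes, found by exact symbol match among the 51826 gene rows measured: the ligand genes Il1a, Il1b and Il18, the antagonist gene Il1rn, the decoy receptor gene Il1r2, and the receptor genes Il1r1, Il1rap and Il18rap. Each symbol matched a single row, and all 8 genes had enough reads to be tested. They were measured by RNA sequencing in mouse bone marrow neutrophils that had received microvesicles (membrane-bound particles released by cells) from the mouse hepatoma line Hepa1-6 after glucose deprivation. In 3 libraries the vesicle donors carried an ezrin knockdown (KD_MV), and in 3 libraries they were controls, wild type in the series' design text (Ctrl_MV). Ezrin links membranes to the actin cortex. All 6 preparations had received vesicles from glucose-deprived cells, and the labels name no library without vesicles. The knockdown was in the donors of the vesicles, so the ezrin transcript of the neutrophils does not check it, and the labels give neither how it was made nor whether the neutrophils of different libraries came from separate animals or cultures. The p-values therefore rest on the variation among libraries alone, part or all of which may be technical, and any difference in preparation cannot be told apart from the vesicle type.

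Interleukin-1 alpha and interleukin-1 beta are inflammatory cytokines that bind the receptor encoded by Il1r1, which signals after pairing with the accessory protein encoded by Il1rap. Il1rn encodes an antagonist that occupies the receptor without signaling, and Il1r2 encodes a decoy that binds the ligands but lacks the signaling domain. Interleukin-18 uses a separate receptor that includes the product of Il18rap as its accessory chain. Interleukin-1 beta and interleukin-18 are made as precursors that caspase-1 cleaves in the inflammasome. Activated neutrophils are a known source of interleukin-1 beta, of the antagonist and of the decoy receptor.

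Total counts ran from 38117403 to 42043434 in KD_MV libraries and from 37346055 to 38826701 in Ctrl_MV libraries. KD_MV replicate 3 stood apart from the other libraries of its group, with a chi-square per degree of freedom of 93.0 and 97.8 against them, where the other pairs within groups gave 20.3 to 37.1. Hemoglobin transcripts took 1.09 ± 0.08% of counts in KD_MV and 9.96 ± 0.88% in Ctrl_MV (SD, n = 3 each). The neutrophil label had mixed marker support. With the TMM scaling of the test, 6 of 12 neutrophil markers fell and 1 rose, where 24.9% of all tested genes fell and 27.8% rose. With library size as the only scaling, Cxcr2, Itgam and Fcgr3 lost their calls, and Ltf and Mmp8 joined Ngp among those called higher. There 12.5% of all genes fell and 46.4% rose. With limma on log2(TPM + 1), Csf3r lost its call as well and S100a8 was also called higher, where 9.14% of all genes fell and 57.4% rose. S100a8 averaged 2033 TPM in KD_MV and 1344 TPM in Ctrl_MV, but 509 CPM in KD_MV and 499.9 CPM in Ctrl_MV on the TMM scale used for the test (adjusted p = 0.926). Camp, a granule gene, averaged 28.8 CPM in KD_MV and 108 CPM in Ctrl_MV on that scale. Retnlg (log2 fold change of KD_MV over Ctrl_MV -2.34), Csf3r (-0.84), Cxcr2 (-0.82), Itgam (-0.80) and Fcgr3 (-0.56) were called lower there as well. The rest of the list did not follow. Ngp rose (1.04), and no change was called on that scale for Ltf (0.05) or Mmp8 (0.21). Ly6g, the surface marker used to define mouse neutrophils, was at only 4.01 ± 0.475 TPM in KD_MV and 3.55 ± 0.683 TPM in Ctrl_MV (TPM, the length-scaled unit deposited by the authors). Cd79a, a B cell receptor subunit, stood at 559 ± 22.1 TPM in KD_MV and 195 ± 26.4 TPM in Ctrl_MV. In such bulk RNA, fewer cells of a type and less RNA per cell cannot be told apart.

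The RefSeq sequences of 250 bases upstream of the transcript start are shown for Il1a, Il1b and Il1rn, because these were the 3 most abundant members and fell together. All are read 5′ to 3′ from the strand of the gene (GRCm38.p6). The windows lie at chr2:129309973-129310222 for Il1a (minus strand), chr2:129371140-129371389 for Il1b (minus strand) and chr2:24336610-24336859 for Il1rn (plus strand). Il1rn has later starts as well, with windows at chr2:24345041-24345290 and chr2:24345121-24345370. Each of these held 0 bases in the motifs searched. Which start these cells used was not tested. Capitals mark matches to the motifs searched.
Il1a: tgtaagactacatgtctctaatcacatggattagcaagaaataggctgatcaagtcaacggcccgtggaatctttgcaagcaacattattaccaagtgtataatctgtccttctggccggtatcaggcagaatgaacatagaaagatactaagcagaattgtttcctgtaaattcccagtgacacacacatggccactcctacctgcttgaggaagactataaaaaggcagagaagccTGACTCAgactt
Il1b: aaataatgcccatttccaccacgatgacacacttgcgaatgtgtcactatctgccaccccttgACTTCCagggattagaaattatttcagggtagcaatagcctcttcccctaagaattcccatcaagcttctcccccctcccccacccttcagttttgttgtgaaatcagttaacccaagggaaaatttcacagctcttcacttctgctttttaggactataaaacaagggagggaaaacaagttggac
Il1rn: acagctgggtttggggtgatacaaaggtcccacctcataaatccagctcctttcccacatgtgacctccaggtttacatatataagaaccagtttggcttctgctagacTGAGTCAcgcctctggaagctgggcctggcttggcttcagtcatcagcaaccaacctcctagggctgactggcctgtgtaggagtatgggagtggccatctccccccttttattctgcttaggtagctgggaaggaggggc
The motifs were the AP-1 letters TGACTCA and TGANTCA, a strict and a looser NF-kB consensus, the C/EBP letters TTGCNNAA and the ETS and PU.1 letters GGAAGT, on both strands; the first pair overlap by construction, as do the NF-kB pair. Il1a held TGACTCA at bases -12 to -6 from the start, and Il1rn held it on the reverse strand at bases -141 to -135, where 4.46% of 32851 mouse promoter windows held a match. Il1b held GGAAGT on the reverse strand at bases -187 to -182, a match found in 19.7% of windows. The strict NF-kB consensus occurred in 0.356% and the looser in 0.98% of all windows, and neither occurred in the 11 windows listed for the 8 members. The looser AP-1 letters occurred in 6.75% and the C/EBP letters in 9.56% of windows. A match is a description of letters, not of a bound site.

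The comparison asked how transcripts of the family differed between neutrophils given knockdown and control vesicles. All members but Il18 fell with knockdown vesicles, to between 32.4% and 60.4% of their control level. In edgeR's quasi-likelihood test, with Benjamini-Hochberg adjustment over 16071 genes, 7 of 8 members were called lower and 0 higher, where 24.9% of all tested genes were called lower and 27.8% higher (52.6% in either direction). The median log2 fold change (KD_MV over Ctrl_MV) was -1.26 for the 8 members and 0.03 for all genes tested. On TMM-scaled CPM the same 7 had no overlap between groups, all lower. Among tested genes 61.3% had none on that scale, 29.3% with KD_MV lower and 32% with KD_MV higher. In TPM the groups of Il1rap and Il18rap overlapped, and those of Il18 did not, with KD_MV higher. The values in each library are given next by role, as CPM, counts scaled to library size with edgeR's TMM factors.

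**Figure D1:**
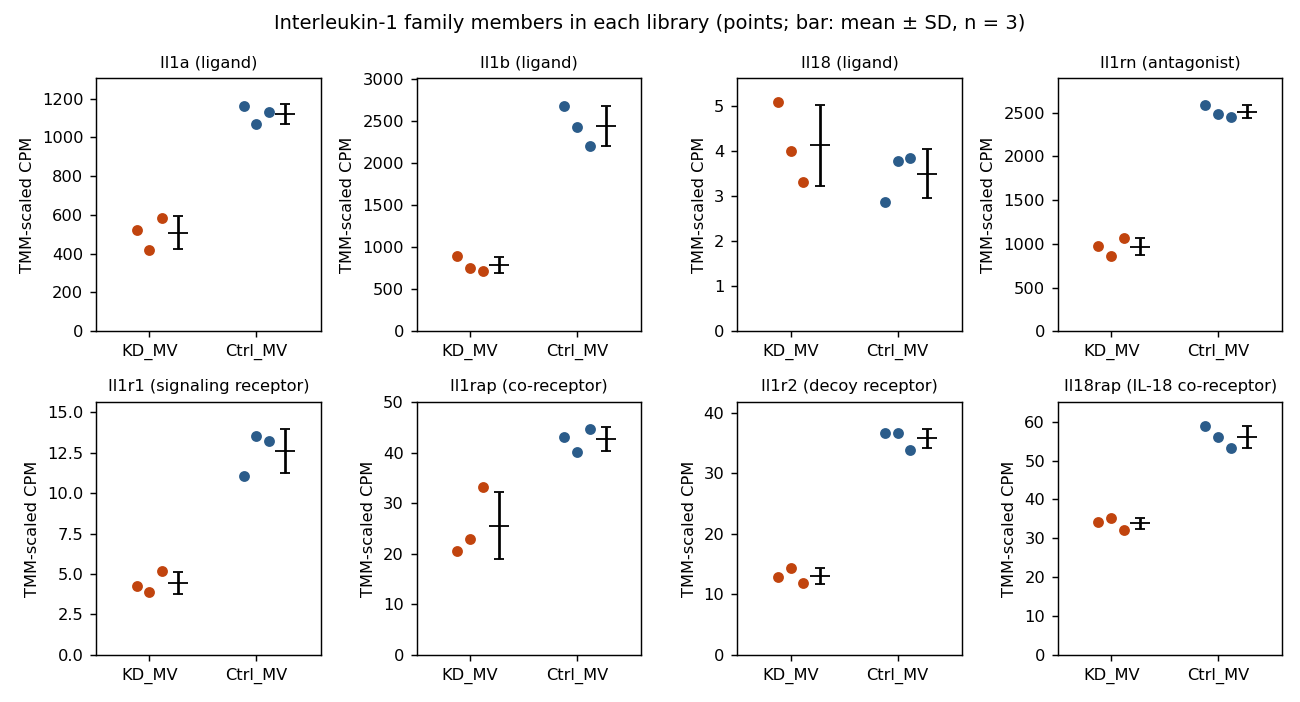
TMM-scaled CPM (vertical axes, each from 0) of the 8 family members in each library, with KD_MV left of Ctrl_MV; points are libraries and bars are the mean ± SD of 3. The groups are apart in 7 panels, and in the Il18 panel the points run from 3.31 to 5.09 CPM in KD_MV and from 2.88 to 3.84 CPM in Ctrl_MV.

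Among the ligands, Il1b (ENSMUSG00000027398, chromosome 2, 129364570 to 129371139, minus strand, mm10) had 893, 753 and 719 CPM in KD_MV replicates 1, 2 and 3 and 2681, 2429.9 and 2197 CPM in Ctrl_MV replicates 1, 2 and 3. Every KD_MV library lay below every Ctrl_MV library. Il1b fell to 32.4% of its Ctrl_MV level (log2 fold change -1.63 ± 0.13 (SE), adjusted p = 2.19e-05) and had the lowest fold change of the 8 members with all libraries. Il1r1 was lower than Il1b without KD_MV replicate 3 (-1.64 for Il1r1, -1.57 for Il1b) or without Ctrl_MV replicate 1 (-1.59 for Il1r1, -1.55 for Il1b). Il1a, the gene of the alarmin interleukin-1 alpha (ENSMUSG00000027399, chromosome 2, 129299610 to 129309972, minus strand), had 523, 419 and 586 CPM in KD_MV replicates 1, 2 and 3 against 1165, 1067 and 1130.4 CPM in Ctrl_MV. It fell to 45.4% (log2 fold change -1.14 ± 0.14 (SE), adjusted p = 1.69e-04), again without overlap. Il18 (ENSMUSG00000039217, chromosome 9, 50554827 to 50581840, plus strand) was a low transcript, at 5.09, 3.99 and 3.31 CPM in KD_MV and 2.88, 3.78 and 3.84 CPM in Ctrl_MV. The groups overlapped on this scale and no change was called (log2 fold change 0.24 ± 0.21 (SE), adjusted p = 0.384). In TPM they did not overlap, at 12.9, 10.5 and 7.87 in KD_MV and 4.99, 6.39 and 6.61 in Ctrl_MV.

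Il1rn, which encodes the receptor antagonist (ENSMUSG00000026981, chromosome 2, 24336853 to 24351494, plus strand), had 975, 865 and 1062 CPM in KD_MV replicates 1, 2 and 3 and 2593, 2489 and 2456 CPM in Ctrl_MV replicates 1, 2 and 3. The antagonist thus fell in the same libraries as the agonists, to 38.5% (log2 fold change -1.38 ± 0.12 (SE), adjusted p = 2.58e-05). Il1r2, the decoy receptor gene (ENSMUSG00000026073, chromosome 1, 40074079 to 40125231, plus strand), had 12.9, 14.4 and 11.9 CPM in KD_MV against 36.7, 36.7 and 33.9 CPM in Ctrl_MV. It fell to 36.5% (log2 fold change -1.46 ± 0.12 (SE), adjusted p = 2.14e-05), with little spread within either group.

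Of the signaling receptors, Il1r1 (ENSMUSG00000026072, chromosome 1, 40225080 to 40317257, plus strand) had 4.28, 3.86 and 5.19 CPM in KD_MV and 11.1, 13.5 and 13.2 CPM in Ctrl_MV. It fell to 35.3% (log2 fold change -1.50 ± 0.16 (SE), adjusted p = 9.63e-05), from low counts of 172 to 248 in KD_MV libraries and 357 to 447 in Ctrl_MV libraries. Il1rap, the shared accessory chain gene (ENSMUSG00000022514, chromosome 16, 26581704 to 26730117, plus strand), had 20.6, 23.0 and 33.1 CPM in KD_MV replicates 1, 2 and 3 and 43.1, 40.2 and 44.8 CPM in Ctrl_MV. KD_MV replicate 3 was the highest of its group and lay below the Ctrl_MV libraries on this scale. In TPM the same library, at 15.8, lay above the Ctrl_MV libraries, which had 13.2, 12.2 and 13.3. Il1rap fell to 59.9% (log2 fold change -0.74 ± 0.17 (SE), adjusted p = 0.00669), and without KD_MV replicate 3 the log2 fold change was -0.98 (adjusted p = 2.49e-04). Il18rap, the accessory chain gene of the interleukin-18 receptor (ENSMUSG00000026068, chromosome 1, 40515362 to 40551705, plus strand), had 34.1, 35.2 and 32.2 CPM in KD_MV against 58.9, 56.1 and 53.2 CPM in Ctrl_MV. It fell to 60.4% (log2 fold change -0.73 ± 0.10 (SE), adjusted p = 3.15e-04). Without KD_MV replicate 3 the other members that fell had log2 fold changes of -1.57 (Il1b), -1.26 (Il1a), -1.46 (Il1rn), -1.40 (Il1r2), -1.64 (Il1r1) and -0.70 (Il18rap), all past the threshold, and Il18 had 0.37 (adjusted p = 0.169). In that comparison 25.7% of genes were called lower and 27.4% higher.

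The size of these differences depended on how libraries were scaled. With library size as the only scaling the median log2 fold change of all genes was 0.43, and with limma on log2(TPM + 1) it was 0.51. With library size only, Il1b was at -1.22, Il1rn -0.98, Il1r2 -1.05, Il1r1 -1.10, Il1a -0.74 and Il18rap -0.32, all past the threshold. Il1rap lost its call (-0.34, adjusted p = 0.118) and Il18 passed upward (0.64, adjusted p = 0.0304). On log2(TPM + 1), Il1b was at -1.05, Il1rn -0.82, Il1r2 -0.84, Il1r1 -0.71 and Il1a -0.58, all called lower. There Il1rap (-0.12, adjusted p = 0.557) and Il18rap (-0.13, adjusted p = 0.33) lost their calls and Il18 was called higher (0.69, adjusted p = 0.011). Genes called lower made up 12.5% of those tested with library size only and 9.14% with log2(TPM + 1), and genes called higher 46.4% and 57.4%. With a fold threshold of 1.5, where 10.6% of genes were called lower and 13.6% higher, Il1rap (adjusted p = 0.215) and Il18rap (adjusted p = 0.0948) were not called.

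**Figure D2:**
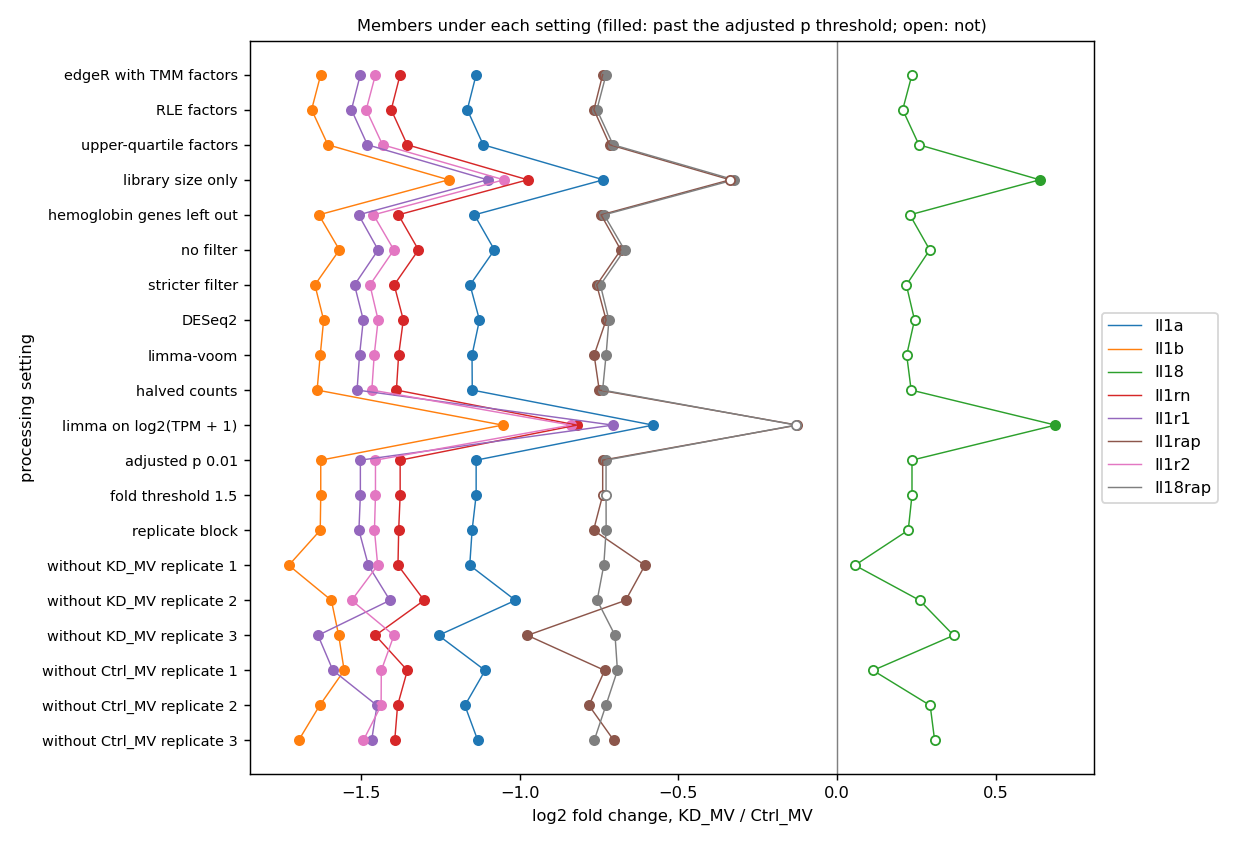
Log2 fold change of each member (horizontal axis) under each processing setting (vertical axis); filled points passed the adjusted p threshold of that setting and open points did not. Il1a, Il1b, Il1rn, Il1r1 and Il1r2 stay filled on the left in every setting drawn, and the lines of all 8 genes move right with library size only and with log2(TPM + 1).

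Levels were compared between genes on the length-scaled TPM of the authors. In KD_MV the order was Il1b (1147 ± 107 TPM), Il1rn (999.8 ± 69.7), Il1a (501 ± 80.01), Il1r2 (19.5 ± 1.92), Il18rap (16.3 ± 0.923), Il1rap (11.999 ± 3.35), Il18 (10.4 ± 2.49) and Il1r1 (1.73 ± 0.318). In Ctrl_MV the order was the same, with Il1b at 2389 ± 297 TPM, Il1rn at 1766 ± 113, Il1a at 743 ± 44.1, Il1r2 at 35.5 ± 1.82, Il18rap at 17.9 ± 1.79, Il1rap at 12.9 ± 0.575, Il18 at 6.00 ± 0.879 and Il1r1 at 3.44 ± 0.285 (SD, n = 3). In KD_MV the libraries of Il1b and Il1rn overlapped, as did those of Il18rap and Il1rap and those of Il1rap and Il18, whereas in Ctrl_MV no neighbours in the order overlapped. By mean TPM among all 51826 gene rows, Il1b ranked 133 in KD_MV and 24 in Ctrl_MV, and Il1rn ranked 145 in KD_MV and 38 in Ctrl_MV. The agonist and antagonist transcripts were thus among the most abundant of these preparations, and the transcript of the signaling receptor Il1r1 ranked 12548 in KD_MV and 9816 in Ctrl_MV.

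Ratios of members within a library do not depend on library scaling, so the balance of agonist, antagonist and decoy was described with 8 of them (counts per length, 0.5 added to each count). With 3 libraries against 3 the exact two-sided permutation test cannot go below p = 0.1, so no ratio could pass 0.05. The ratio of Il1rn to Il1b was 0.771, 0.811 and 1.04 in KD_MV replicates 1, 2 and 3 and 0.683, 0.723 and 0.789 in Ctrl_MV, with overlapping groups (log2 difference 0.25, exact p = 0.2, 0.267 adjusted over the 8 ratios). The ratio of Il1a to Il1b was 0.396, 0.376 and 0.551 in KD_MV against 0.294, 0.297 and 0.348 in Ctrl_MV. These did not overlap (log2 difference 0.48, exact p = 0.1, adjusted 0.16), in the direction of a smaller share of Il1b among the agonist transcripts in KD_MV. The ratio of Il18 to Il1b was 0.00968, 0.00902 and 0.00782 in KD_MV against 0.00183, 0.00265 and 0.00298 in Ctrl_MV, again without overlap (log2 difference 1.85, exact p = 0.1, adjusted 0.16). The decoy to signaling receptor ratio, Il1r2 to Il1r1, overlapped between groups, at 11.2, 13.9 and 8.53 in KD_MV and 12.4, 10.1 and 9.57 in Ctrl_MV (log2 difference 0.05, exact p = 0.9, adjusted 1.0). Its sign turned when KD_MV replicate 2 (-0.12) or Ctrl_MV replicate 3 (-0.03) was left out. Relative to Il1rap, both were lower in KD_MV without overlap, with log2 differences of -0.69 for Il1r2 and -0.74 for Il1r1 (exact p = 0.1 and adjusted 0.16 for each). Without KD_MV replicate 3 the first of these was -0.42. The ratio of Il1rn to Il1a had a log2 difference of -0.23 (exact p = 0.1, adjusted 0.16), and that of Il18rap to Il1rap 0.04 (exact p = 1.0), whose sign turned with KD_MV replicate 1 (-0.11), KD_MV replicate 2 (-0.05) or Ctrl_MV replicate 3 (-0.03) left out.

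**Figure D3:**
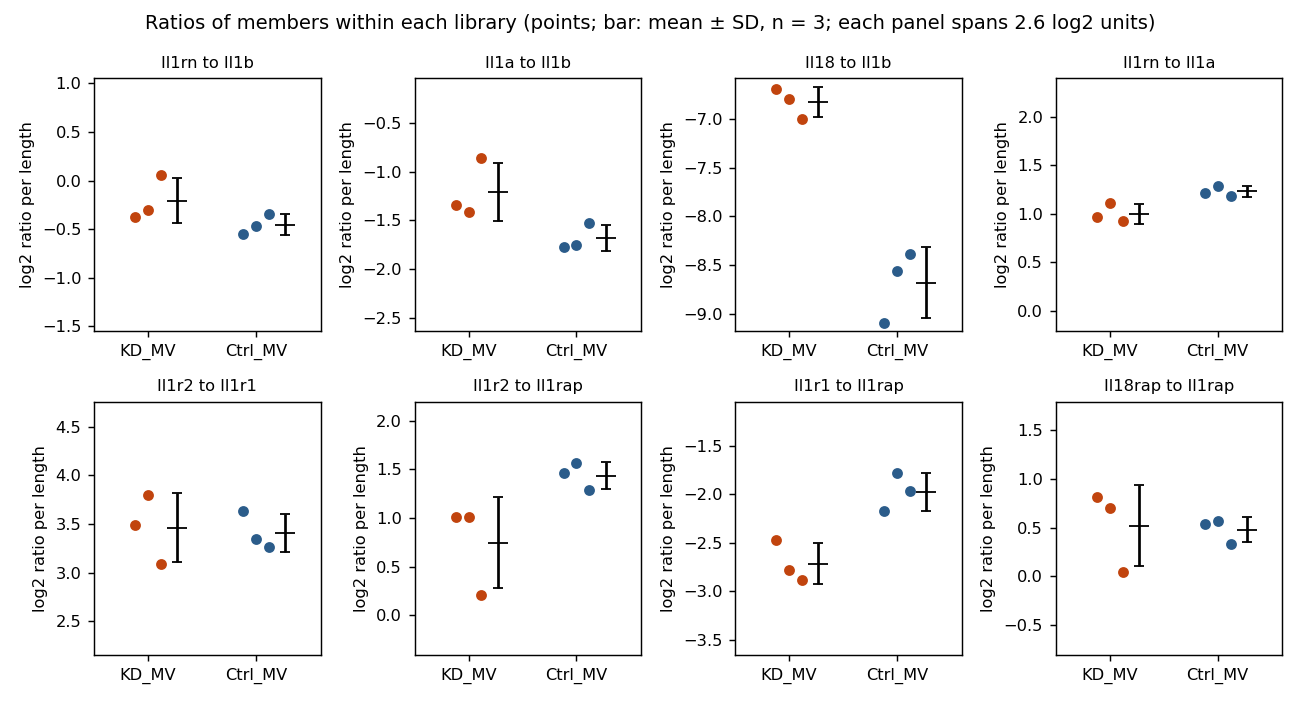
Log2 of the length-scaled ratio between 2 members within each library (vertical axes), KD_MV left of Ctrl_MV; points are libraries, bars are the mean ± SD of 3, and every panel spans the same height. The groups are apart in 5 of 8 panels, by 1.85 for Il18 to Il1b and by 0.23 to 0.74 in size for the other 4.

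Members share loci, and position was set beside the fold changes. The receptor genes Il1r2, Il1r1, Il1rl2, Il1rl1, Il18r1 and Il18rap lie in that order within 478 kb of chromosome 1. The 3 at the Il1r2 end were lower, at -1.46 (Il1r2), -1.50 (Il1r1) and -0.81 ± 0.17 (SE) for Il1rl2, the interleukin-36 receptor gene (adjusted p = 0.00399). The call of Il1rl2 was lost with library size only (-0.41, adjusted p = 0.071) and with log2(TPM + 1) (-0.14, adjusted p = 0.375). Next to them Il1rl1, the interleukin-33 receptor gene, did not pass (0.33 ± 0.18 (SE), adjusted p = 0.158) but was called higher with library size only (0.73) and with log2(TPM + 1) (0.43). Nor was a change called for Il18r1, the ligand-binding chain of the interleukin-18 receptor (-0.22 ± 0.14 (SE), adjusted p = 0.224). Il18rap, at the far end, was lower (-0.73). On chromosome 2, Il1rn lies in a cluster of 198 kb with the interleukin-36 genes, and Il1a and Il1b lie together within 71.5 kb elsewhere. Il36g, an epithelial and myeloid agonist of the interleukin-36 receptor, averaged 1075 ± 41.5 CPM in KD_MV and 2710.5 ± 147 CPM in Ctrl_MV and fell (log2 fold change -1.33 ± 0.11 (SE), adjusted p = 1.96e-05). Per length its level was 1267 ± 37.9 TPM in KD_MV and 2151 ± 114 TPM in Ctrl_MV. Il36a, an agonist of the same receptor, averaged 26.4 ± 3.36 CPM in KD_MV and 54.2 ± 4.88 CPM in Ctrl_MV and fell (-1.04 ± 0.13 (SE), adjusted p = 1.92e-04).

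**Figure D4:**
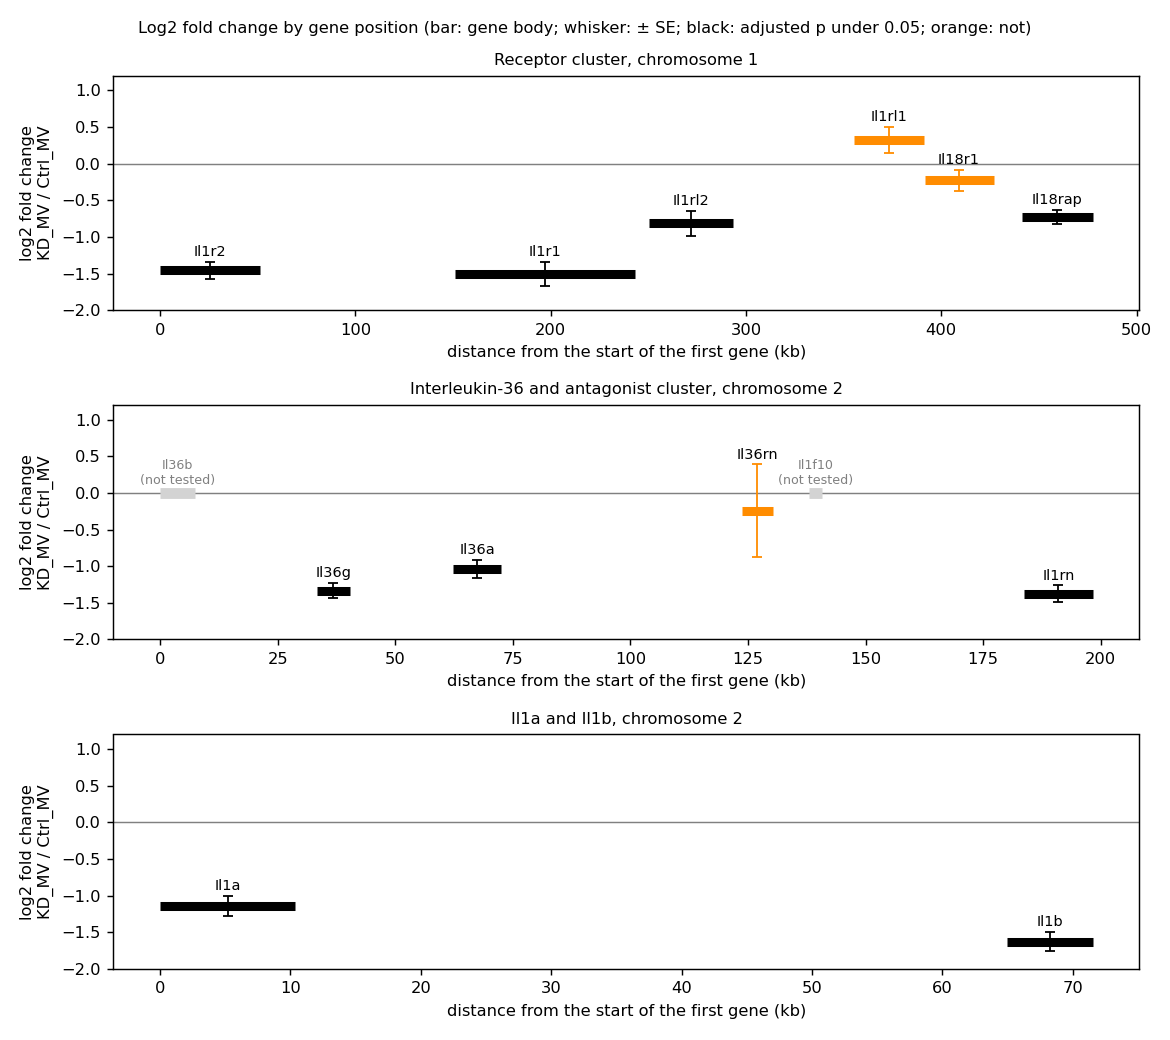
Log2 fold change, KD_MV over Ctrl_MV (vertical axis), against distance from the start of the first gene of each cluster in kb (horizontal axis); bars span gene bodies, whiskers are ± SE, black genes passed an adjusted p of 0.05, orange genes did not and grey genes were not tested. In the receptor cluster Il1r2 (-1.46) and Il1r1 (-1.50) are lowest, and Il1rl1 (0.33) is the sole gene above 0.

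Of the family outside the 8 members, 3 of 8 tested genes fell and 1 rose, where 24.9% of all genes fell and 27.8% rose, with a median log2 fold change of -0.23; the 5 others listed, among them Il33 and Il36b, had too few counts to be tested. Sigirr, which encodes a receptor that restrains interleukin-1 signaling, rose, at 9.61 ± 0.745 CPM in KD_MV and 5.90 ± 0.195 CPM in Ctrl_MV (0.70 ± 0.13 (SE), adjusted p = 0.00207). Il18bp, the gene of a soluble binder of interleukin-18, averaged 101 ± 6.13 CPM in KD_MV and 104 ± 10.4 CPM in Ctrl_MV and did not pass (-0.04 ± 0.11 (SE), adjusted p = 0.8). It was called higher with library size only (0.37) and with log2(TPM + 1) (0.54).

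Downstream of the receptor, 15 of 24 signal transduction genes fell and none rose (median log2 fold change -0.54), where 24.9% of all genes fell and 27.8% rose. Myd88, the adaptor that receptors of this family recruit, averaged 124 ± 10.5 CPM in KD_MV and 232 ± 2.75 CPM in Ctrl_MV (-0.91 ± 0.10 (SE), adjusted p = 8.96e-05). The kinase gene Irak2 (-1.19), the regulatory IkB kinase subunit gene Ikbkg (-1.50), and the inhibitors Tollip (-1.01) and Irak3 (-1.33) fell as well, so that activating and restraining genes were both among the falls. The split depended on scaling: with library size only 8 fell and 5 rose, where 12.5% of all genes fell and 46.4% rose. With log2(TPM + 1) 6 fell and 9 rose, where 9.14% of all genes fell and 57.4% rose.

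Of the processing and release genes, 11 of 24 fell and 8 rose, with a median of -0.31; 27.8% of all genes rose, near the share of the list, and 24.9% fell. With library size only 6 fell and 9 rose, where 12.5% of all genes fell and 46.4% rose. With log2(TPM + 1) 6 fell and 10 rose, where 9.14% of all genes fell and 57.4% rose. The balance of the list thus turned as the shares of all genes shifted upward. The inflammasome sensor gene Nlrp3 averaged 256 ± 47.9 CPM in KD_MV and 686 ± 127 CPM in Ctrl_MV and fell (-1.42 ± 0.17 (SE), adjusted p = 1.91e-04). Its adaptor Pycard rose, at 60.6 ± 10.5 CPM in KD_MV and 21.2 ± 0.377 CPM in Ctrl_MV (1.51 ± 0.14 (SE), adjusted p = 4.34e-05). Casp1, the gene of the protease that cleaves the interleukin-1 beta precursor, fell on the TMM scale (-0.41 ± 0.09 (SE), adjusted p = 0.00416). Casp1 was not called with library size only (-0.01, adjusted p = 0.929) and turned direction with log2(TPM + 1) (0.15, adjusted p = 0.176). The pore-forming gasdermin gene Gsdmd (-0.57) also lost its call with library size only (-0.17, adjusted p = 0.3) and with log2(TPM + 1) (-0.01, adjusted p = 0.964). The membrane rupture gene Ninj1 (-0.99) and Card19 (-0.95) fell on the TMM scale and under both of these. Elane, neutrophil elastase, rose at low levels, 6.88 ± 1.25 CPM in KD_MV and 0.425 ± 0.00819 CPM in Ctrl_MV (4.01 ± 0.23 (SE), adjusted p = 3.86e-06). Of 6 markers of granulocyte precursors 5 rose, where 27.8% of all genes rose. Their summed level was 47.0 to 63.3 CPM in KD_MV and 16.8 to 17.5 CPM in Ctrl_MV. Elane, Prtn3 (4.29) and Ctsg (1.29) belong to this list and to the processing list, and count among the rises of both. The part of precursors in the result was not tested.

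Of the NF-kB target genes that interleukin-1 is known to induce, 24 of 29 tested fell and 2 rose (median log2 fold change -1.07), against the same shares of all genes. The interleukin-6 gene Il6 (-3.22 ± 0.17 (SE), adjusted p = 2.42e-06) and the growth factor gene Csf2 (-3.63) had the smallest p, followed by the prostaglandin synthase gene Ptgs2 (-1.96) and the chemokine gene Cxcl1 (-1.91). These genes also answer to other receptors, and which receptor acted was not tested.

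**Figure D5:**
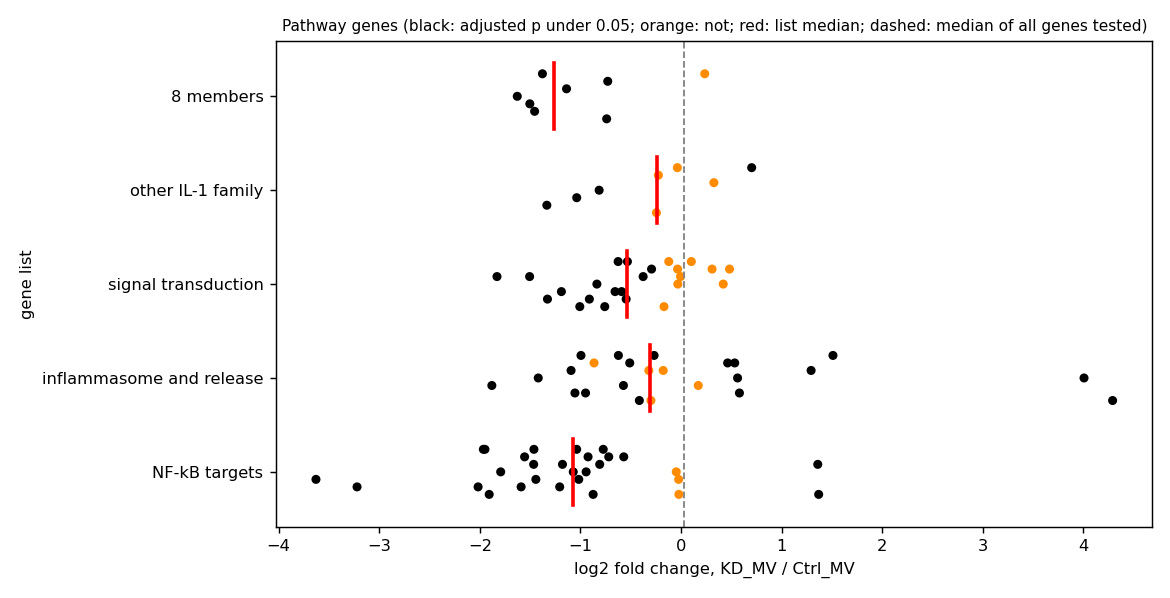
Log2 fold change, KD_MV over Ctrl_MV (horizontal axis), of every tested gene in each list (vertical axis); black points passed an adjusted p of 0.05, orange points did not, red lines are list medians and the dashed line is the median of all genes tested. The medians are -1.26 for the 8 members, -0.23 for the rest of the family, -0.54 for signal transduction, -0.31 for processing and release and -1.07 for NF-kB targets.

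Markers of other cells that can express the family were set beside the 24.9% of all genes that fell and the 27.8% that rose. Monocyte and basophil lists had shares near these. Of 10 monocyte and macrophage markers 3 rose and 3 fell, and their summed level was 1517 to 1754 CPM in KD_MV and 2149.6 to 2328 CPM in Ctrl_MV, with none at 0. Of 12 neutrophil markers 1 rose and 6 fell, with sums of 1969.8 to 2742 CPM in KD_MV and 2784 to 3061 CPM in Ctrl_MV. That split was on the TMM scale and depended on scaling, as given above. For T and NK cells, which express Il18rap, 4 of 12 markers rose and 1 fell, with sums of 134 to 144 CPM in KD_MV and 97.1 to 125 CPM in Ctrl_MV. For basophils and mast cells, which express Il1rl1, 2 of 7 markers rose and 2 fell, with sums of 50.2 to 57.6 CPM in KD_MV and 46.5 to 53.2 CPM in Ctrl_MV. Of 7 eosinophil markers 4 rose, with sums of 406 to 572 CPM in KD_MV and 23.96 to 26.996 CPM in Ctrl_MV, and of 8 B cell markers 6 rose, with sums of 1783 to 1905 CPM in KD_MV and 854 to 1054 CPM in Ctrl_MV. Of 6 megakaryocyte and platelet markers 5 rose, with sums of 112 to 134 CPM in KD_MV and 47.9 to 59.9 CPM in Ctrl_MV. Both tested hepatoma markers, of 8 listed, fell, with sums of 6.58 to 9.88 CPM in KD_MV and 23.3 to 34.7 CPM in Ctrl_MV and with Serpina1a, Ahsg and Fgb at 0. Of 5 tested stromal and endothelial markers 3 fell and 1 rose, with sums of 82.5 to 91.98 CPM in KD_MV and 175 to 207 CPM in Ctrl_MV. Dendritic cell markers, 1 of 6 higher and 2 lower, summed to 294 to 413 CPM in KD_MV and 286 to 308 CPM in Ctrl_MV. Of 10 erythroid markers 8 fell. Leaving hemoglobin genes out of the counts gave log2 fold changes of -1.63 for Il1b and -1.46 for Il1r2. That setting changes the scaling alone and leaves any other RNA of erythroid cells in place. The part of these cell types in the results was not tested.

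Some members share bases with antisense genes, and whether the counting used strand is not stated in the sources at hand. Il1b shares 1.31% of its exon bases with Il1bos, which had 72 to 79 counts in KD_MV libraries and 209 to 279 in Ctrl_MV libraries and fell as well (log2 fold change -2.18 ± 0.18 (SE), adjusted p = 2.52e-05, a gene chosen after its values were seen). Il1a shares 11.2% with Gm14023, which had 66 to 109 counts per library, and Il1rap shares 4.86% with Gm20319, which had at most 6. Reads of each pair cannot be told apart without strand, and the partners' counts were small beside those of Il1a, Il1b and Il1rap. Among the other genes named, Ikbkg, Myd88, Irak2, Irak3, Pycard, Csf2 and Il18bp also share exon bases with a neighbouring gene and are uncertain to that extent.

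The pattern of Il1b over the 6 libraries was most like that of Hsd17b1, Gpr84, Rnf149, Spp1 and CT010463.1. The root mean square difference of centred log2 CPM from Il1b was 0.0678 for Hsd17b1, 0.0741 for Gpr84, 0.0816 for Rnf149, 0.0824 for Spp1 and 0.0855 for CT010463.1. Spp1 averaged 309 CPM in KD_MV and 957 CPM in Ctrl_MV, and Gpr84 136 CPM in KD_MV and 436 CPM in Ctrl_MV. Hsd17b1 (1.03 CPM in KD_MV, 3.41 CPM in Ctrl_MV) and CT010463.1 (1.68 and 5.08 CPM) were low transcripts. The measure includes the difference between groups, and the log2 fold changes of these genes ran from -1.72 to -1.59, near that of Il1b.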

How the data were processed

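Libraries were made from total RNA with a stranded mRNA kit, per the labels' protocols. Trim Galore, Subread and featureCounts are named, with build mm10, by the submitters' processing notes, without versions. In each library every gene has 3 deposited values, per the file headers: counts, TPM and FPKM, of which FPKM was not used. The deposited counts were whole numbers without normalization, and the deposited TPM summed to 999842 to 999905 per library. Even values made up 55.5 to 57.9% of counts from 1 to 20, so halved counts were tried.

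The test was that of edgeR 4.0.16 under R 4.3.3 (filterByExpr, minimum count 10 and total 15; TMM; glmQLFit and glmQLFTest on group; two-sided; adjusted p threshold 0.05), and the SE was derived from the F statistic. All 6 libraries entered the fit. Other settings tried were scaling by RLE, by upper quartile or by library size alone, leaving out hemoglobin genes, no filter, a stricter filter (CPM of 1 in 3 libraries), DESeq2 1.42.0, limma-voom (limma 3.58.1), halved counts, limma on log2(TPM + 1) for genes with mean TPM of at least 1, an adjusted p of 0.01, a fold threshold of 1.5, a replicate block and leaving out each library. The ratios were also computed from TPM + 0.1 and with 2 added to each count. Length for the ratios was the median count per TPM of the gene. The script was tested on simulated data.

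The members, and the lists, were chosen with earlier results of these data known. All members were named, with the 4 genes of smallest p in each list, direct partners of members, and the 5 genes nearest to Il1b. Interleukin-36 genes are listed in the file under older symbols and were matched through RefSeq synonyms. Promoter sequences are from RefSeq, build GRCm38.p6, in which all 8 members matched by symbol.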

Additional observations from a re-analysis of the deposited data

How the results depend on the processing

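The direction of all 8 members held under each of 19 alternatives. The count of members called lower was 7 except with library size only (6, without Il1rap) and with log2(TPM + 1) or a fold threshold of 1.5 (5 each, without Il1rap and Il18rap). With upper-quartile factors 1 signal transduction gene was called higher in place of 0. With library size only, 1 member, 3 other family genes, 5 signal transduction genes and 4 NF-kB targets were called higher, and 8 signal transduction and 6 processing genes lower (9 processing genes higher). Of all genes 46.4% were then called higher and 12.5% lower. With limma on log2(TPM + 1), 1 member, 3 other family genes, 9 signal transduction genes and 5 NF-kB targets were called higher, and 6 signal transduction and 6 processing genes lower (10 processing genes higher). There 57.4% of all genes were called higher and 9.14% lower. Called genes were 52.8% higher with TMM factors, 78.8% with library size only and 86.3% with log2(TPM + 1). With a fold threshold of 1.5, 0 other family genes and 4 processing genes were called higher, and 6 signal transduction and 6 processing genes lower. At that threshold 13.6% of all genes were called higher and 10.6% lower. The median gene shifted with the scaling, as given above, and the cause was not tested.

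Leaving out each library in turn gave 7 members lower and 0 higher every time, and 0 to 1 signal transduction genes higher. Ratios of Il1r2 to Il1r1 then ran from -0.12 to 0.23 and of Il18rap to Il1rap from -0.11 to 0.28 as log2 differences; the other 6 kept their sign. With the replicate block, 7 members were lower and 0 higher, and 4123 of all genes were called higher and 3676 lower, in place of 4464 and 3995. Same-numbered libraries did not deviate together (correlations of -0.01, -0.08 and -0.05). With 3 libraries per group this cannot tell whether they were prepared in pairs.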
